A study of Mus musculus with 7 samples.

Results

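Aminoacyl-tRNA synthetases are the enzymes that join each amino acid to its transfer RNA, the step that supplies charged tRNA to the ribosome. They were followed in LSK cells of mouse bone marrow after deletion of the kinase gene Lkb1 (Stk11). LSK cells are sorted as negative for lineage markers and positive for Sca-1 and c-Kit, a gate that holds blood stem cells and early progenitors. The members were all probe sets whose only gene symbol is a capital letter followed by ars, with or without a final 1 or 2, or is Eprs, Farsa or Farsb, with the brightest probe set standing for each gene. This gave 26 genes, measured by 48 probe sets, of 12393 genes with a probe set of their own, namely 18 cytosolic genes and 8 mitochondrial ones whose symbols end in 2. The cytosolic enzymes for methionine and aspartate are not analysed here.

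Lkb1 KO samples (4, numbered 4 to 7) came from adult mice with floxed Lkb1 alleles and a tamoxifen-activated Cre recombinase, CreERT2, at the Rosa26 locus. Lkb1 WT samples (3, numbered 5 to 7) came from mice with the same floxed alleles and no Cre. Both groups received tamoxifen for 5 days, belonged to C57BL/Ka-CD45.2:Thy-1.1, a mouse strain, and were sorted 1 day after the last injection at 15000 to 20000 cells a sample, with about 10 ng of RNA amplified for 1 array each. Cre was thus present in KO mice alone, the Cre acts in cells of the whole body, and nothing in the labels states in words that each sample is a separate animal. The p-values therefore reflect sample-to-sample spread alone, part of which may be technical.

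As background, a cell makes separate sets of synthetases for the cytosol and for mitochondria, nearly all from nuclear genes of their own, while Gars and Kars each encode both forms. Class I and class II enzymes differ in the fold of the catalytic domain. Several cytosolic enzymes are held in a multi-synthetase complex by the scaffold proteins of Aimp1, Aimp2 and Eef1e1. When amino acids run short, uncharged tRNA activates the kinase GCN2 (Eif2ak4), and the transcription factor ATF4 then raises amino acid genes and a share of the cytosolic synthetases. MYC also raises genes of protein synthesis, through sites that include the E-box. LKB1 activates the energy-sensing kinase AMPK, which restrains growth signalling through mTORC1.

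RefSeq promoter sequence (build GRCm38.p6) was at hand for 17 of the 26 genes, and the 250 bases before the annotated start were searched on both strands for TGATGNAA, a core of sites bound by ATF4 with a C/EBP partner, and for the E-box CACGTG. The first was present in 3 of the 17 (Gars, Aars and Tars), against 3.45% of 32851 promoters of the same length, and the second in 3 of the 17 (Farsb, Aars and Iars), against 6.02%. All 3 matches of the first lay on the opposite strand and so appear as their reverse complement here. The matches of the 2 motifs did not overlap, and a match is a description of letters and no evidence of binding. The 160 bases that end just before the start are shown 5′ to 3′ on the gene's strand, with matches in capitals, for the 5 genes that hold a match and for Eprs. Eprs, the only synthetase past the threshold used below, holds neither. The windows lie at chr1:185362884-185363043 (plus strand) for Eprs, chr6:55037841-55038000 (plus) for Gars, chr8:111033682-111033841 (plus) for Aars, chr15:11399659-11399818 (minus) for Tars, chr1:78488898-78489057 (minus) for Farsb and chr13:49681970-49682129 (plus) for Iars.
Eprs: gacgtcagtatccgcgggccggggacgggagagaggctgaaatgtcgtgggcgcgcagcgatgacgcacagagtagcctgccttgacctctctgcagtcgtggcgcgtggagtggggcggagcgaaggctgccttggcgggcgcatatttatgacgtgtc
Gars: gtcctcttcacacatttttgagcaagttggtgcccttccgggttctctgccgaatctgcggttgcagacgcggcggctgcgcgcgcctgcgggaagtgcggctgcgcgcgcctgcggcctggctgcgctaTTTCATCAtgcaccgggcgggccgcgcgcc
Aars: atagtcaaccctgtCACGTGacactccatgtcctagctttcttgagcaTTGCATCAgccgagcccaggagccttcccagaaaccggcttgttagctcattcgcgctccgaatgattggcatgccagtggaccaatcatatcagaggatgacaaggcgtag
Tars: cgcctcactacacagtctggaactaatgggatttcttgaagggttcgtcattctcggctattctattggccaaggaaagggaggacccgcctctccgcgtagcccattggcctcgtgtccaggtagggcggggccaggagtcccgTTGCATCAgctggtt
Farsb: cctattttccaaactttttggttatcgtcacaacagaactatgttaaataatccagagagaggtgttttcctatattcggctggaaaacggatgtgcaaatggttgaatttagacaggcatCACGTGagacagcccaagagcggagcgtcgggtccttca
Iars: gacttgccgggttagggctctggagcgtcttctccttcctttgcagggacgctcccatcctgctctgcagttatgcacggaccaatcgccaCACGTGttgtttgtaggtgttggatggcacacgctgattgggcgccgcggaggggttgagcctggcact

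The arrays were not on 1 scale as deposited. The mean signal of an array, trimmed by 2% at each end, lay between 360.1 and 424.9 on KO arrays and between 227.9 and 339.4 on WT arrays (two-sided exact permutation p = 0.0286, the smallest that 35 splits allow). Values below are therefore quantile-normalized, and differences (KO minus WT) are in log2(signal + 16) and carry limma standard errors. Genes entered the test if their mean lay above the 40th percentile of probe sets. In that set of 8077 genes, KO had 200 that rose (2.48%) and 233 that fell (2.88%), or 5.36% in all, at an adjusted p under 0.05 (limma, Benjamini-Hochberg over all genes), so that 46.2% of calls were higher. As deposited, the median of all genes was shifted up by 0.34 and 97.0% of calls were higher, and with median centring the shift was 0.08 and 76.9% were higher, so every direction here is relative to the median gene. The ratio of 3' over 5' signal for Actb, which depends on RNA length, lay between 11.41 and 12.29 on the KO arrays and between 12.6 and 13.11 on the WT arrays (two-sided exact permutation p = 0.0571). The same ratio for Gapdh overlapped, at 7.49 to 7.95 on the KO arrays and 6.68 to 9.46 on the WT arrays (two-sided exact permutation p = 0.6). Stk11 itself had a deposited signal of 162.5, 123.4, 91.2 and 74.1 in KO 4 to 7, against 187.3, 115.2 and 99.3 in WT 5 to 7, which overlapped. After normalization it stood at -0.56 ± 0.19 (limma adjusted p = 0.117). A second, dimmer Stk11 probe set, which was not tested, stood the other way at 0.71. Its deposited signals overlapped, at 38.3, 57.9, 28.5 and 5.9 in KO and 3.4, 5.1 and 19.4 in WT. The position of either probe set against the deleted part is not known here, so Stk11 does not check the labels. Of the LSK marker list, the 6 measured genes Kit, Cd34, Flt3, Sox4, Meis1 and Hlf were above background on all 7 arrays, and Ly6a, which encodes Sca-1, had no probe set of its own.

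Of the synthetases, Eprs alone passed as higher in KO, in a call that was not firm, and the family as a whole lay slightly above the median gene. Among 16 cytosolic genes tested, 1 rose and none fell, against 2.48% and 2.88% of all genes, so in this scaling the count is near the background. It was 6 of 16 with median centring, where 6.79% of all genes rose, and 8 of 16 as deposited, where 17.0% did. Among 8 mitochondrial genes tested, none passed in either direction in limma, and 1 was higher at an unadjusted p under 0.05. The difference lay above 0 for 22 of the 24 tested, against 47.7% of all genes, with a median of 0.21 for the cytosolic and 0.18 for the mitochondrial genes and of -0.02 for all genes. The cytosolic genes ran from -0.001 (Qars) to 0.50 (Eprs), and the mitochondrial genes from -0.09 (Pars2) to 0.47 (Tars2). At an unadjusted p under 0.05, 7 of the 24 were higher and none lower, against 11.8% and 13.6% of all genes. Members share arrays and are not independent of each other, and no test was made over the family.

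**Figure D1:**
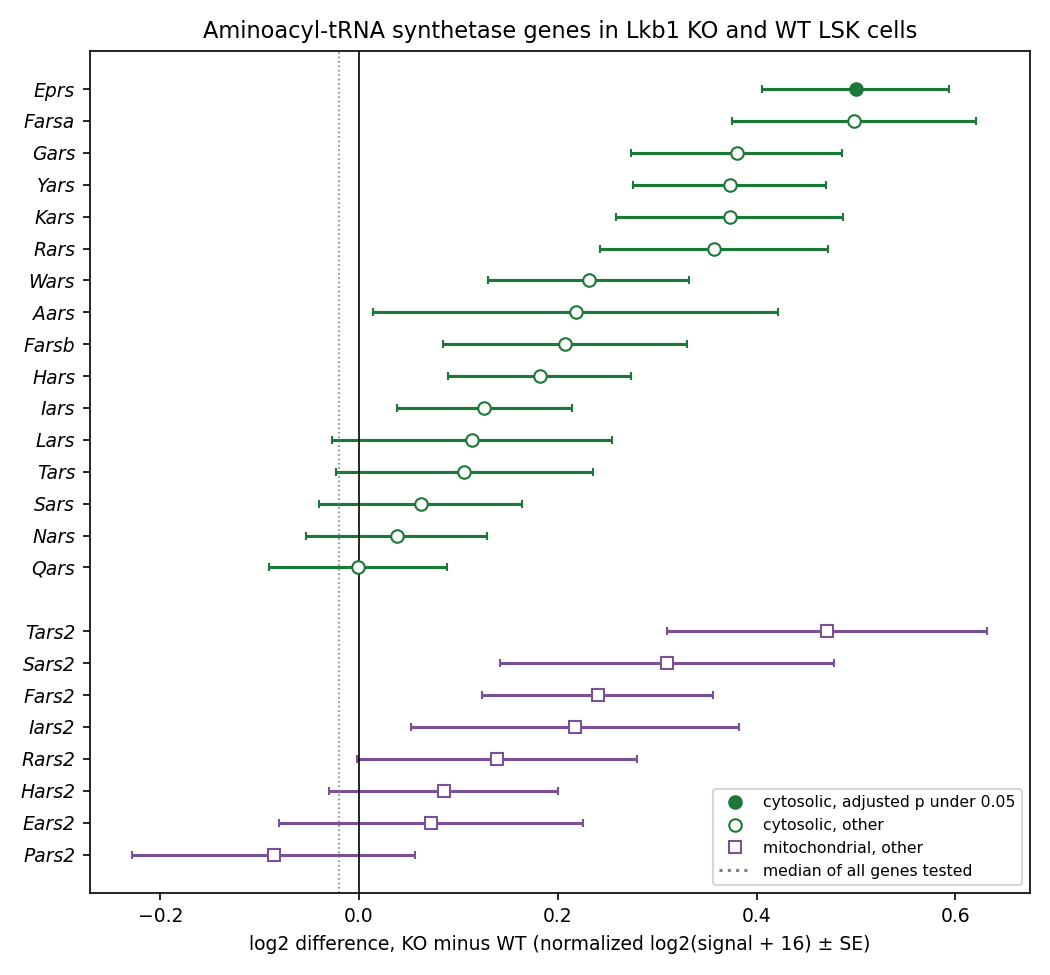
Log2 difference, KO minus WT, of the 24 synthetase genes tested, on the normalized log2(signal + 16) scale with its standard error; circles are cytosolic and squares mitochondrial genes, and the filled circle passed at an adjusted p under 0.05. All but Qars and Pars2 lie above 0, and only Eprs passed.

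Eprs encodes the enzyme that charges both glutamate and proline tRNAs and sits in the multi-synthetase complex. Its normalized signal was 1279, 1256, 1456 and 1377 in KO 4 to 7, against 949, 989 and 892 in WT 5 to 7. Every KO sample lay above every WT sample. The difference was 0.50 ± 0.09, or 1.41-fold (limma adjusted p = 0.0269, 95% interval 0.29 to 0.71). Deposited signals were 1588.6, 1449, 1534.5 and 1419.2 in KO and 925.2, 882.9 and 573.4 in WT. The call was not firm: without each of the 7 samples in turn the adjusted p ran from 0.0544 to 0.0737 and Eprs passed in none of those fits, although the difference stayed at 0.46 to 0.53. It did not pass with the Actb ratio as a covariate (0.54, limma adjusted p = 0.512), but no gene passed in that fit. The ratio did not overlap between KO and WT, so that fit could hardly pass and says little about Eprs. The part of RNA length in the result was not tested beyond that. The other probe sets of Eprs were at 0.35 and 0.17, with KO and WT values that overlapped. In these bulk samples, a change in the mix of cells and a change in RNA per cell cannot be told apart.

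Another 5 cytosolic genes had an unadjusted p under 0.05 without passing after adjustment. Farsa, the alpha subunit of the phenylalanine enzyme, had a normalized signal of 131, 101, 124 and 112 in KO 4 to 7, against 77.9, 66.8 and 90.1 in WT 5 to 7. The groups did not overlap, at 0.50 ± 0.12 (limma adjusted p = 0.0553). Yars, for tyrosine, stood at 189, 171, 206 and 196 in KO and 144, 133 and 152 in WT, again without overlap, at 0.37 ± 0.10 (limma adjusted p = 0.0611). Gars, for glycine in both compartments, is one of the genes with TGATGNAA before its start. It had 1373, 1364, 1297 and 1558 in KO and 1194, 1020 and 999 in WT, with the lowest KO sample above the highest WT sample, at 0.38 ± 0.11 (limma adjusted p = 0.072).

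Kars, the lysine enzyme of both compartments, had 1071, 987, 863 and 965 in KO and 821, 658 and 762 in WT, at 0.37 ± 0.11 (limma adjusted p = 0.0891). Rars, the arginine enzyme, had 554, 550, 523 and 559 in KO and 429, 358 and 492 in WT, at 0.36 ± 0.12 (limma adjusted p = 0.103). In both genes the KO and WT samples stood apart, and Rars varied less among KO samples (SD 0.04 log2 units) than among WT samples (SD 0.22). Hars, for histidine, also had groups that did not overlap, at 0.18 ± 0.09, with 2069 to 2200 in KO and 1703 to 1990 in WT (limma adjusted p = 0.263). In all, 8 of 24 synthetases, 7 of them cytosolic, had KO values wholly above WT values and none had them wholly below, where 11.4% and 12.7% of all genes did.

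**Figure D2:**
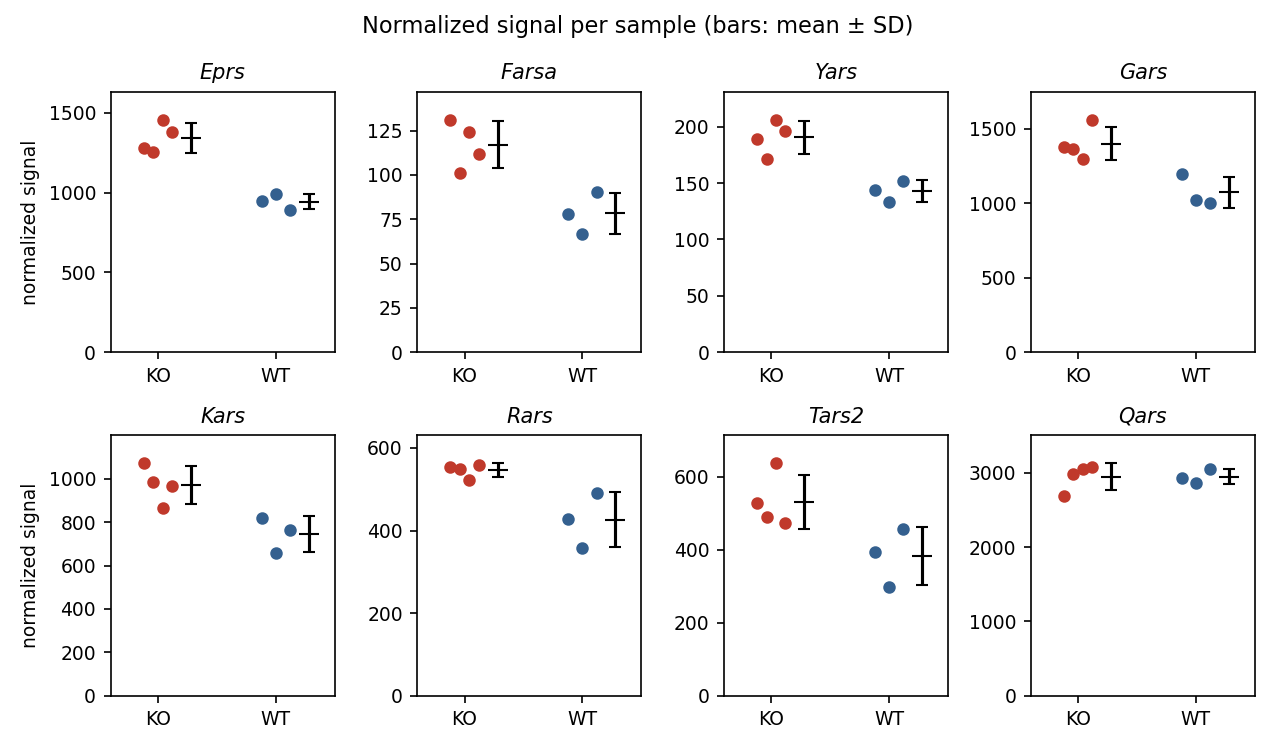
Normalized signal of 8 synthetase genes in each sample, on a linear axis from 0, with KO samples (red) left of WT samples (blue) and the mean ± SD as a bar. KO and WT points do not overlap for Eprs, Farsa, Yars, Gars, Kars, Rars and Tars2, and overlap for Qars.

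The other cytosolic genes differed less. Wars, for tryptophan, was at 0.23 ± 0.10 (275, 278, 247 and 277 in KO, against 202, 251 and 229 in WT). Farsb, the beta subunit of the phenylalanine enzyme, was at 0.21 ± 0.12. Aars, for alanine, was at 0.22 ± 0.20 and varied widely in KO, at 411, 245, 390 and 472 in KO 4 to 7, against 291, 359 and 300 in WT 5 to 7. KO 5 was its lowest sample of all.

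Iars (isoleucine), Lars (leucine), Tars (threonine), Sars (serine) and Nars (asparagine) lay between 0.04 and 0.13, with limma adjusted p of 0.41 to 0.832. Qars, for glutamine, had 2686, 2980, 3046 and 3080 in KO and 2929, 2858 and 3056 in WT, at -0.001 ± 0.09 (95% interval -0.21 to 0.20). Its direction is not fixed, at 0.12 with median centring and 0.01 with cyclic loess.

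Cars (cysteine) and Vars (valine) were too dim to enter the test. The Cars probe set gave deposited signals of 39.3, 16.5, 31.6 and 14.8 in KO and 25.3, 20.7 and 11.7 in WT. That of Vars gave 91.8, 38.7, 21.3 and 31 in KO and 27.3, 5.2 and 11.5 in WT, and it exceeded the background level of 13.64 on all 4 KO arrays and on 1 of 3 WT arrays. The groups overlapped in both genes, and neither is called.

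The mitochondrial genes spread over a similar range. Tars2, the threonine enzyme of mitochondria, had a normalized signal of 528, 489, 637 and 474 in KO 4 to 7, against 394, 298 and 456 in WT 5 to 7. KO and WT did not overlap, at 0.47 ± 0.16 (limma adjusted p = 0.118, 95% interval 0.10 to 0.84). Sars2 (serine) was at 0.31 ± 0.17, Fars2 (phenylalanine) at 0.24 ± 0.12 and Iars2 (isoleucine) at 0.22 ± 0.17, each with overlapping groups. Rars2 (arginine) at 0.14 ± 0.14, Hars2 (histidine) at 0.09 ± 0.12 and Ears2 (glutamate) at 0.07 ± 0.15 lay nearer to 0. Pars2, for proline, was the one mitochondrial gene below 0, at -0.09 ± 0.14 (164, 159, 114 and 132 in KO and 163, 129 and 161 in WT).

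The cytosolic and mitochondrial genes of 1 amino acid were set side by side in 9 pairs. This test could hardly pass: with 35 splits a single pair reaches an adjusted p of 0.257 at best, and 6 pairs would have to sit at the smallest p to pass together, so the adjusted values say little about whether pairs differ. The largest gap was between Eprs at 0.50 and Pars2 at -0.09, a difference of 0.59 (two-sided exact permutation p = 0.0571, adjusted over 9 pairs p = 0.386). Eprs exceeded Ears2 by 0.43 (exact permutation p = 0.0857, adjusted p = 0.386). For threonine the order was the other way, with Tars at 0.11 and Tars2 at 0.47, a difference of -0.37 (exact permutation p = 0.143, adjusted p = 0.429). For the other 6 pairs the difference lay between -0.25 and 0.26.

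**Figure D3:**
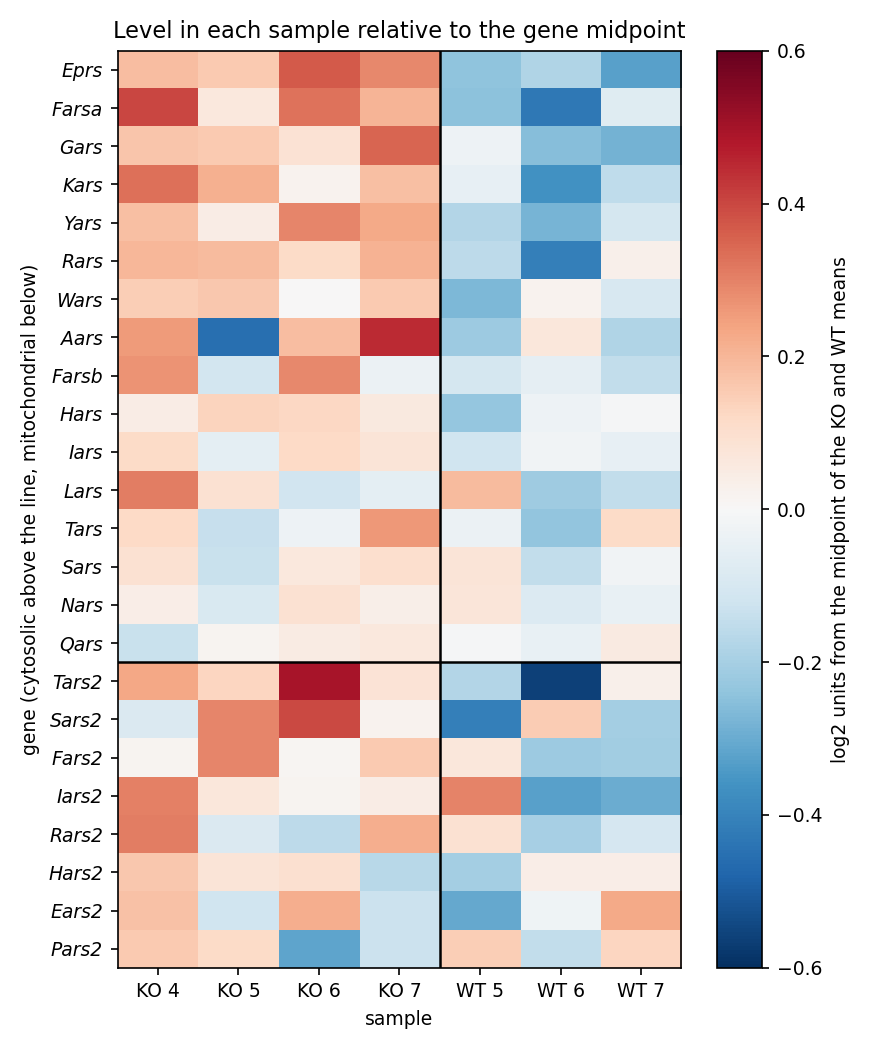
Level of each synthetase gene tested (rows) in each sample (columns, KO left of WT), in log2 units from the midpoint of its KO and WT means, red above and blue below. The upper rows are red in all KO samples, and Aars in KO 5 is the deepest blue cell among the KO samples.

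Across samples, the median cytosolic gene stood 0.17, 0.05, 0.10 and 0.17 log2 units above its midpoint in KO 4 to 7, and at -0.11, -0.17 and -0.08 in WT 5 to 7. The median mitochondrial gene stood at 0.17, 0.10, 0.06 and 0.03 in KO and at -0.05, -0.17 and -0.04 in WT. Over all genes the same value lay between -0.01 and 0.02, which quantile normalization keeps small by its design. The midpoint is that of the KO and WT means, so the opposite signs of the groups restate the differences given above. WT 6 was thus the lowest sample for both sets, and KO 4 was the highest for the mitochondrial set.

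Groupings by enzyme type gave similar values. The median was 0.14 for 9 class I genes tested and 0.21 for 14 class II genes, leaving out Eprs, which holds an enzyme of each class. It was 0.24 for the 6 cytosolic members of the multi-synthetase complex (Eprs, Iars, Lars, Qars, Kars and Rars) and 0.21 for the other 10 cytosolic genes. It was 0.17 for 10 cytosolic genes known as ATF4 targets and 0.28 for the other 6. Eprs was the 1 call among these groupings, as a member of the complex and as an ATF4 target. By position on GRCm38.p6, Eprs (0.50) and Iars2 (0.22) lie on chromosome 1 with Bpnt1 between them, and Hars (0.18) and Hars2 (0.09) are direct neighbours.

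In 12 genes there were further probe sets above the filter, 18 in all, of which 14 lay above 0. When each probe set was tested as its own feature, a fit in which 2.02% of probe sets rose and 1.82% fell, the brightest of Eprs passed (limma adjusted p = 0.0381) and no other synthetase probe set did. The second probe set of Tars2 stood at 0.37 beside 0.47 for the first, with 519, 430, 475 and 508 in KO and 387, 370 and 350 in WT. The genes disagreed more elsewhere. The dimmer Nars probe set was at 0.40 without overlap, with 767, 797, 818 and 922 in KO and 568, 564 and 745 in WT, while the brighter was at 0.04. The dimmer Iars probe set was at 0.56, with overlap through WT 7, against 0.13 for the brighter.

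A Qars probe set stood at -0.51, apart from the 3 others at -0.001 to 0.14, and dimmer ones of Hars2, Farsb and Aars lay at -0.21, -0.10 and -0.06. Other dimmer Farsb probe sets stood at 0.29 and 0.35, both without overlap. Of the dimmer Wars probe sets above the filter, that without a suffix x stood at 0.31 without overlap, and the other at 0.14 with overlap. By the maker's naming, the probe sets that stand for Farsb, Qars and Wars (suffix x) and for Aars, Iars and Sars (suffix s) can share probes with other transcripts, so their values are uncertain to that extent.

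**Figure D4:**
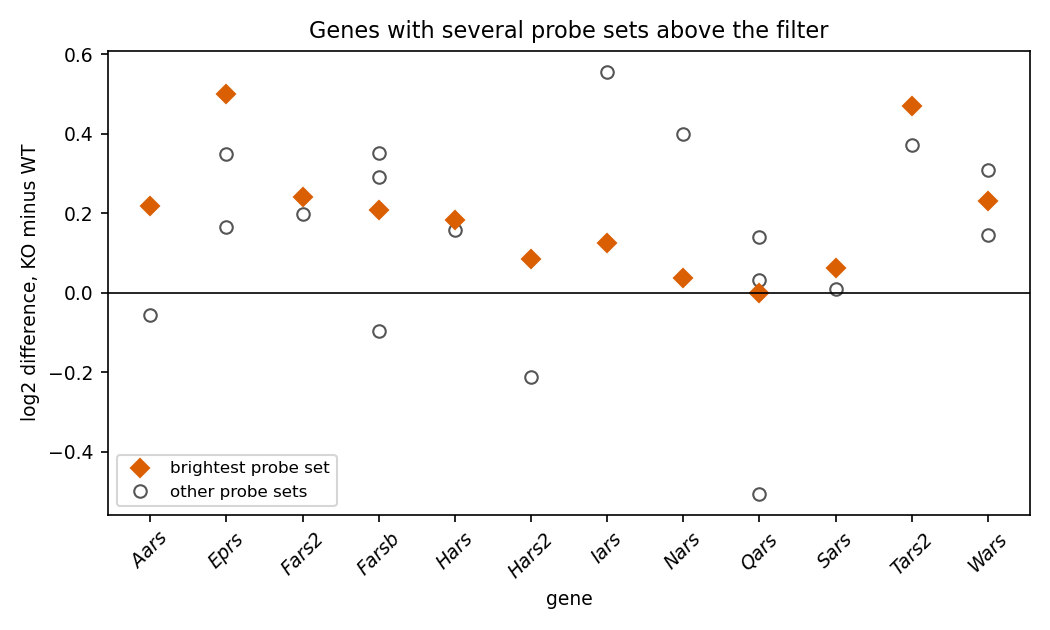
Log2 difference, KO minus WT, for every probe set above the filter in the 12 synthetase genes with more than 1, with the brightest as a filled diamond and the others as open circles. Probe sets of Qars span the widest range within a gene, followed by Farsb and Iars, and 14 of the 18 open circles lie above 0.

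None of the 3 scaffold genes of the multi-synthetase complex passed (0 by limma, 1 at an unadjusted p under 0.05), with Eef1e1 at 0.36 ± 0.14, Aimp2 at 0.20 ± 0.14 and Aimp1 at 0.09 ± 0.12. Eef1e1 had 506, 538, 451 and 687 in KO and 404, 426 and 421 in WT, without overlap, as had 11.4% of all genes in that direction. Of 8 other charging, amidation and editing genes none passed (0 at an unadjusted p under 0.05 in limma), with a median of 0.10. Of all genes, 2.48% rose and 2.88% fell, and 11.8% and 13.6% did so at an unadjusted p under 0.05. Lists of 3 and 8 genes thus allow little comparison. Qrsl1, a subunit of the mitochondrial enzyme that makes glutaminyl-tRNA by amidation, was the highest at 0.23 ± 0.15.

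Of 22 genes tested in the ATF4 pathway, which raises part of the cytosolic synthetases, 1 fell and none rose, near the 2.88% and 2.48% of all genes, with a median of 0.03. Trib3, a pseudokinase gene induced by ATF4, fell to 100, 127, 98 and 110 in KO 4 to 7, against 227, 285 and 225 in WT 5 to 7, at -1.06 ± 0.12 (limma adjusted p = 0.0112), and it passed in all 7 fits without 1 sample. Asns, which makes asparagine, had 446, 349, 381 and 418 in KO and 470, 639 and 630 in WT, at -0.51 ± 0.14 (limma adjusted p = 0.0658). Atf4 itself had 1865, 1860, 1843 and 1894 in KO and 2052, 2592 and 2317 in WT, at -0.31 ± 0.10 (limma adjusted p = 0.106). In all 3 genes the highest KO sample lay below the lowest WT sample. Of the 22, 4 had KO values wholly below WT values and 3 wholly above, against 12.7% and 11.4% of all genes.

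Other ATF4-linked genes stood on both sides of 0. Ppp1r15a, a phosphatase subunit that reverses the stress signal, was at -0.46 ± 0.12, Ddit3 at -0.25 ± 0.13 and Chac1 at -0.08 ± 0.29. The serine and glycine genes Shmt2 and Psat1 were at 0.44 ± 0.12 and 0.28 ± 0.10, and the secreted factor gene Stc2 at 0.53 ± 0.13, with limma adjusted p from 0.0584 to 0.117. In these the KO values lay wholly above the WT values. Eif2ak4, the kinase that senses uncharged tRNA, was at -0.09 ± 0.09, and Impact, an inhibitor of its activation, at -0.29 ± 0.12. In the scaling as deposited, Atf4 stood at 0.11 and Asns at -0.10, both under the 0.34 of the median gene.

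Of 23 genes that transcribe and process tRNA, 1 rose and none fell, near the 2.48% and 2.88% of all genes, with a median of 0.05. Polr3e, a subunit of RNA polymerase III, rose to 383, 284, 382 and 333 in KO, against 243, 215 and 181 in WT, at 0.66 ± 0.14 (limma adjusted p = 0.037), and passed in 1 of the 7 fits without 1 sample. The other genes of lowest p were the TFIIIC subunit gene Gtf3c6 at 0.46 ± 0.14 and the polymerase III subunit genes Crcp at 0.33 ± 0.12 and Polr3k at 0.30 ± 0.12. Maf1, the repressor of polymerase III, was at -0.19 ± 0.08 (limma adjusted p = 0.192). The other probe set of Polr3e was lower, at 0.27, and the 2 others of Maf1 stood at -0.47 and -0.34.

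Of 9 cytosolic elongation and termination genes, the release factor gene Gspt1 rose (0.51 ± 0.12, limma adjusted p = 0.0466) and none fell, with a median of 0.02. Its normalized signal was 365, 316, 365 and 399 in KO and 221, 242 and 285 in WT, with no overlap. Of 11 mitochondrial translation genes, Mto1, which modifies mitochondrial tRNA, rose (0.46 ± 0.10, limma adjusted p = 0.0377) and none fell, with a median of 0.11. It had 518, 450, 509 and 518 in KO and 387, 361 and 330 in WT. In both lists 1 call stands beside the 2.48% of all genes that rose. Gspt1 and Mto1 passed in none of the 7 fits without 1 sample. The 2 other probe sets of Gspt1 stood at 0.19 and 0.61.

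Of 9 genes of the MYC network, Mycn fell (-0.52 ± 0.12, limma adjusted p = 0.046) and none rose, against 2.88% and 2.48% of all genes, with a median of -0.25. Mycn passed in none of the 7 fits without 1 sample, and its other probe set stood at -0.23. Myc had 2048, 1424, 1882 and 2142 in KO and 1398, 1295 and 1954 in WT, at 0.28 ± 0.18, with overlap. Mxd4 stood at -0.32 ± 0.13, Mxi1 at -0.27 ± 0.09 and Mnt at -0.25 ± 0.12, none of them past the threshold. In the list, 2 genes lay above 0, Myc among them, and 7 below, so its median gives no direction for Myc itself or for MYC activity. The 3 synthetases with an E-box before the start, Farsb, Aars and Iars, stood at 0.21, 0.22 and 0.13. Those with TGATGNAA, Gars, Aars and Tars, stood at 0.38, 0.22 and 0.11. None of these 5 genes passed, where 2.48% of all genes rose and 2.88% fell, so the count allows little comparison. The part of either motif in these values was not tested.

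**Figure D5:**
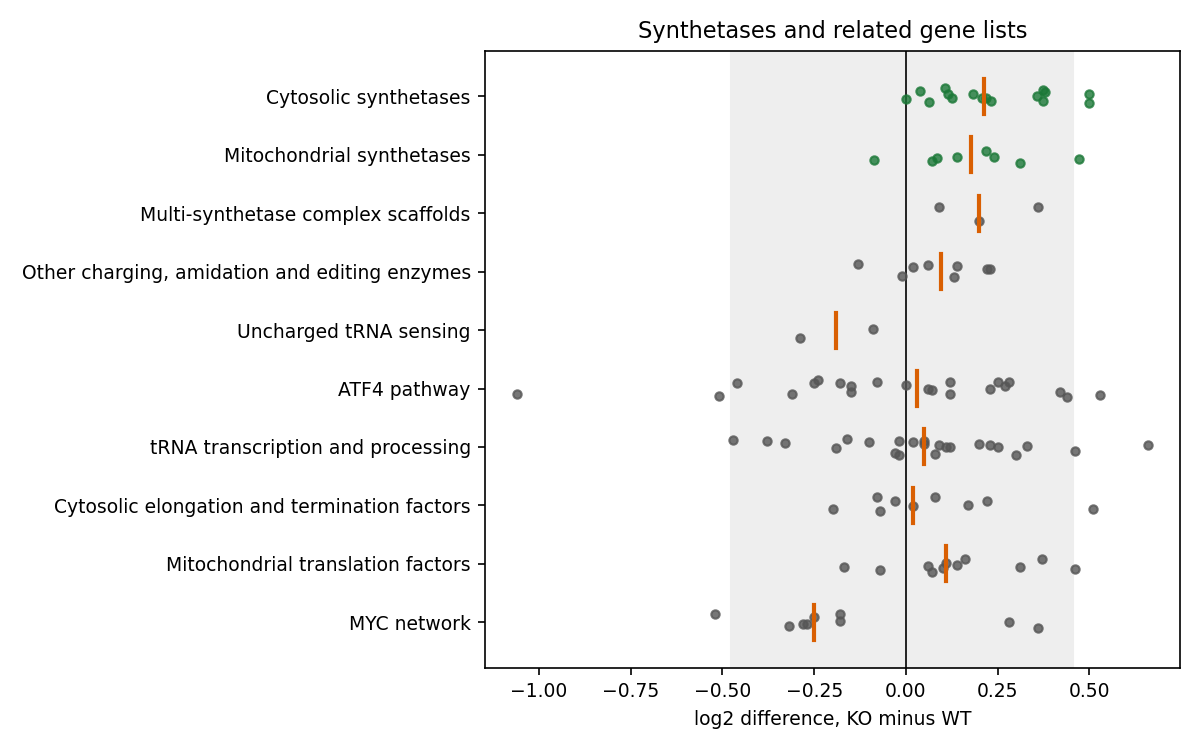
Log2 difference, KO minus WT, of each gene tested in the cytosolic and mitochondrial synthetase sets (green) and in 8 related lists (grey), with the median of each as an orange bar and the 5th to 95th percentile of all genes, -0.48 to 0.45, as a shaded band. Most synthetases lie to the right of 0 inside the band, while the ATF4 pathway spreads to both sides, with Trib3 farthest left.

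Some marker lists differed with the genotype. The counts below stand beside 2.88% of all genes tested that fell and 2.48% that rose, and lists with few genes tested allow little comparison. Of 14 granulocyte and monocyte genes tested, which a lineage-negative sort should deplete, 10 fell and none rose in KO, with a median of -1.51, and their summed normalized signal lay between 14917 and 21162 in KO and between 36086 and 49563 in WT. The list did not move as one: Csf1r and Itgam, picked after their values were seen, stood at 0.75 ± 0.22 (limma adjusted p = 0.0829) and 0.40 ± 0.11 (limma adjusted p = 0.0658), both with KO values wholly above WT values, and Ccr2 stood at 0.02. Of 7 erythroid genes tested Hba-a2 rose and Ermap fell, with a median of -0.46. In 6 of the 7 the KO values lay wholly below the WT values, and in Hba-a2 wholly above. Of all genes, 12.7% and 11.4% did so. Sums over 9 erythroid genes were 3544 to 4620 in KO and 4894 to 6530 in WT. Of the LSK markers, 2 of 6 fell, namely Kit and Hlf, with sums of 11853 to 12910 in KO and 14959 to 16912 in WT. All 6 lay below 0, with a median of -0.37, and 4 had KO values wholly below WT values, against 12.7% of all genes. Of 2 B and T cell genes tested none passed (0 by limma and 0 at an unadjusted p under 0.05), with sums over 8 genes of 635 to 787 in KO and 638 to 828 in WT, and Cd3e and Cd79a were at or below background on every array. Of 6 stromal and endothelial genes, with sums of 236 to 346 in KO and 415 to 609 in WT, Col1a2 alone was tested and it fell. The part of these shifts in the synthetase values was not tested.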

How the data were processed

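RNA of sorted LSK cells was measured on 1 Affymetrix array per sample, in 4 Lkb1 KO and 3 Lkb1 WT samples. The labels name the 430 2.0 array, while 22690 probe sets were deposited, 64 being controls, which is the number of a smaller design. The deposited values are signal intensities on a linear scale, made by the authors with MAS5 per the submitters' processing notes, and the probe-level step before them is not given in the sources used here. Of the non-control probe sets, 20380 had 1 gene symbol in the platform annotation, 691 several and 1555 none, and only the first kind was used.

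Signals were quantile-normalized and tested as log2(signal + 16) with limma 3.58.1 in R 4.3.3 (lmFit, eBayes, Benjamini-Hochberg over 8077 genes, threshold 0.05), using the brightest probe set of each gene by mean deposited signal and a filter at the 40th percentile. The script was tested on simulated data. Background is the 95th percentile of 27 control probe sets that were not added to the sample, 13.64 signal units. The number of arrays limits the precision. The members and lists were chosen with earlier results of these data known. The text names every synthetase found by the rule, and from each related list the genes past the threshold, up to 4 by lowest p, and Stk11, Atf4, Trib3, Asns, Ddit3, Chac1, Myc, Maf1, Eif2ak4, Aimp1, Aimp2 and Eef1e1. Other genes named, Kit, Hlf, Ermap and Hba-a2 among them, come from the marker lists. Single values were tested by two-sided exact permutation over 35 splits. Alternatives changed the scaling, pseudocount, filter, probe set choice, prior, weights, replicate block, RNA-length covariate and the samples, and each probe set as its own feature was added after the data were seen.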

Additional observations from a re-analysis of the deposited data

Results flagged for a closer look

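In Wars, the tryptophan enzyme, KO 6 stood apart from the other KO samples, at a normalized signal of 247 beside 275, 278 and 277 in KO 4, KO 5 and KO 7, and against 202, 251 and 229 in WT 5 to 7. The gap of KO 6 to its nearest neighbour was 0.91 of the range of the KO samples, above Dixon's 95% limit for 4 samples. Chance gives such a gap in about 1 of 20 groups, and 26 genes were examined.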

How the results depend on the processing

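The counts depended on the processing, and the cause was not tested. Of all genes, 200 rose and 233 fell, against 1371 and 42 with signals as deposited, 548 and 165 with median centring, 324 and 370 with a pseudocount of 64, 28 and 47 with no filter, 359 and 354 with a filter at the 60th percentile, and 465 and 457 with a trend and robust prior. With the Actb ratio as covariate none rose or fell in limma (715 at an unadjusted p under 0.05). Leaving out 1 sample gave 9 (without KO 7) to 77 higher and 35 (without WT 7) to 115 lower. The count of cytosolic synthetases that rose, 1, became 8 as deposited, 6 with median centring, 2 with a pseudocount of 64, 3 at the 60th percentile, 3 with the trend and robust prior, and 0 with no filter, with the mean of probe sets, with the Actb covariate and without any 1 sample (0 to 0). The mitochondrial count, 0, became 2 as deposited and 1 with median centring. The cytosolic median of 0.21 became 0.61 as deposited, 0.34 with median centring and 0.14 with the Actb covariate, and 0.18 to 0.25 without 1 sample. The mitochondrial median of 0.18 became 0.51 as deposited, and 0.10 (without KO 4) to 0.22 without 1 sample. Relative to the median gene, the cytosolic median stayed at 0.16 to 0.27 and the mitochondrial at 0.12 to 0.24 over the settings run. Eprs had a limma adjusted p of 0.0641 with no filter and 0.135 with the mean of probe sets. The sign turned for Qars (0.39 as deposited, 0.12 with median centring, 0.01 with loess, 0.04 with the replicate block, 0.12 with the Actb covariate, -0.02 without KO 6 to 0.04 without KO 4, and 0.03 without WT 7), Pars2 (0.27 as deposited, -0.18 without WT 6 to 0.00 without KO 6), Aars (-0.31), Rars2 (-0.20) and Tars (-0.06) with the Actb covariate, Ears2 (-0.06 without WT 5) and Hars2 (-0.06 with the mean of probe sets). The numbers 5 to 7 occur in both groups, and nothing in the labels says whether they pair mice. Same-numbered samples deviated together with r of 0.028, 0.094 and 0.053, each the highest for its sample. Samples of unlike number had r of -0.064 to -0.006. Whether same-numbered samples share more than a number cannot be told from these small values. With the replicate block, 0 genes rose and 1 fell in limma (1698 at an unadjusted p under 0.05), and 0 cytosolic synthetases rose (Eprs 0.52, adjusted p = 0.12).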
